A study of Mus musculus with 12 samples.

Results

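Whether losing BACH1 changes the response of lung adenocarcinoma cells to FEM1B knockdown was measured as an interaction in a 2 by 2 design. The interaction is the log2 change that FEM1B siRNA caused in BACH1 knockout cells minus the log2 change it caused in control cells. It was tested in every gene with 10 or more counts in at least 3 libraries, which left 13312 of the 24421 gene symbols in the count table, and it used all 12 libraries of the series. The cells were KP cells, a mouse lung adenocarcinoma line whose genotype is labelled KrasLSL-G12D/+; Trp53flox/flox, grown in DMEM with serum. All 4 groups share that genotype. Cells carrying a control guide RNA (sgCTRL) or a CRISPR/Cas9 guide RNA against Bach1 (sgBACH1) received control siRNA (siCTRL) or siRNAs against Fem1b (siFEM1B) for 48 hours. Each of the groups sgCTRL_siCTRL, sgCTRL_siFEM1B, sgBACH1_siCTRL and sgBACH1_siFEM1B had 3 biological replicates, per the design text. The labels name 1 control line and 1 knockout line, so an effect of Bach1 loss and any other difference between these lines cannot be told apart. Off-target effects of the siRNA and effects of lower Fem1b cannot be told apart either.

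BACH1 is a heme-binding repressor that sits on antioxidant response elements, the same DNA sites through which the activator NRF2 (gene Nfe2l2) turns on genes for glutathione synthesis, detoxification and iron storage. FEM1B is a substrate receptor of CUL2 ubiquitin ligases, which mark selected proteins for degradation, and BACH1 and the folliculin partner FNIP1 are among the proteins described as its substrates. Many genes under BACH1 and NRF2 protect cells from ferroptosis, a death caused by iron-dependent oxidation of membrane lipids. The libraries were made to ask how loss of either protein affects the expression of ferroptosis genes.

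Library totals lay between 16539168 and 22196999 counts. Fem1b was at 157 to 167 CPM (counts scaled to a common library total with TMM factors) in sgCTRL_siCTRL and at 43.0, 57.9 and 54.2 CPM in replicates 1 to 3 of sgCTRL_siFEM1B. In sgBACH1 cells it was at 136 to 141 CPM with siCTRL and at 46.2, 54.4 and 46.4 CPM with siFEM1B. The knockdown was of like size in both lines, with an interaction of 0.15 ± 0.12 (log2, ± standard error; adjusted p = 0.483). Bach1 transcript was at 27.6 to 44.0 CPM in all 12 libraries with an interaction of 0.04 ± 0.11 (adjusted p = 0.879), and these counts do not check the knockout, because a frameshift can leave transcript levels as they were. Of the epithelial lung tumour markers, Krt8, Krt18 and Krt19 were at 1900 CPM or more in every library, Epcam was at 1.56 CPM or less, and Nkx2-1, the lung lineage factor, had 0 counts. Of the alveolar type 2 markers, the surfactant genes Sftpa1 and Sftpd were at 0 as well, and Sftpb was at 0.357 CPM or less. Others of that list were present: Abca3 was at 113 to 135 CPM, Etv5 at 58.9 to 72.2 and Lpcat1 at 10.7 to 22.8. Of 11 leukocyte markers, Cd68 and Cd74 made up most of the summed level, which was 8.27 to 10.8 CPM in sgCTRL_siCTRL, 27.5 to 36.5 in sgCTRL_siFEM1B, 5.69 to 6.15 in sgBACH1_siCTRL and 9.40 to 12.1 in sgBACH1_siFEM1B. Ptprc, the pan-leukocyte gene, was at 0.488 CPM or less, and Adgre1, Cd3e and Tyrobp were at 0. The interaction of Cd68 itself was −0.82 and passed the test used below, a result lost without any 1 of 6 libraries. The part of these marker levels in the results was not tested. Fewer cells of a type and less RNA per cell cannot be told apart in these bulk libraries.

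The interaction passed the test in 805 genes, or 6.05% of those tested. It was higher in 459 (3.45%), where siFEM1B lowered a gene less or raised it more in knockout cells, and lower in 346 (2.6%). With median-of-ratios scaling in place of TMM the split turned, from 57% of the calls higher to 45.7%, and with DESeq2's own test it was 45.3%. Most called interactions were moderate: their median absolute size was 0.49 on the log2 scale against 0.17 over all genes tested, and 90 genes (0.676%) reached a size of 1, 51 higher and 39 lower. By comparison, siFEM1B itself changed 5982 genes (44.9%) in control cells and 5535 (41.6%) in knockout cells. These 2 comparisons share no library. Both called 3673 genes, of which 3603 moved in the same direction, and 168 of those 3603 (4.66%) had a called interaction. Across all tested genes the correlation of the log2 changes in the 2 lines was 0.627, and it was 0.733 over the 10000 genes at an average log2 CPM of 3 or more. Genes are not independent replicates, so this is a description.

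**Figure D1:**
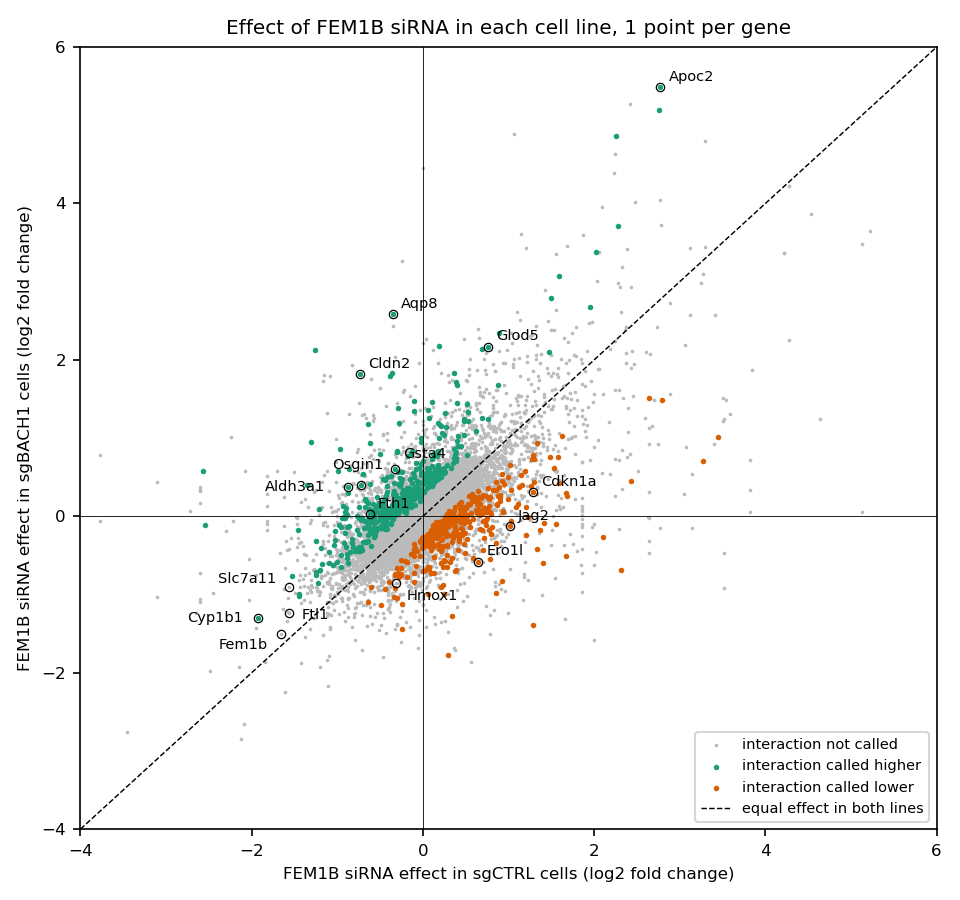
Log2 fold change with siFEM1B in sgCTRL cells (horizontal axis) against that in sgBACH1 cells (vertical axis), 1 point per gene tested, coloured where the interaction was called; the dashed line marks equal effects and 1 gene lies outside the axes. Fem1b and Ftl1 lie low on both axes, while Aqp8, Cldn2, Gsta4, Osgin1 and Aldh3a1 lie left of 0 on the horizontal axis and above 0 on the vertical one.

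A change called in one line and not in the other was seldom a called difference between the lines. Of 2309 genes called with siFEM1B in control cells alone, 1976 had no called interaction, and of 1862 called in knockout cells alone, 1630 had none. The 805 genes are sorted here by the component effects, which come from the same libraries and so describe the shape of the interaction without adding support to it. In 333 (41.4%) the siRNA effect was called in control cells alone, with 179 genes lowered there and 154 raised. In 232 (28.8%) it was called in knockout cells alone, with 139 raised and 93 lowered. In 97 (12%) it was called in both lines in the same direction and was larger in control cells, and in 71 (8.82%) it was larger in knockout cells. In 70 (8.7%) the called effects ran in opposite directions, 40 falling in control and rising in knockout cells and 30 the reverse. The remaining 2 were called in neither line.

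Antioxidant genes were among those with a higher interaction. The gene lists used here and below were chosen with earlier results of these data known. Their shares set against all genes are therefore descriptions and not independent tests. Of 32 listed NRF2 targets 27 were tested and 7 had a called interaction, all higher, against 3.45% of all genes: Osgin1, Aldh3a1, Gsta4, Gstm1, Gclm, G6pdx and Prdx1. The median over the 27 was 0.27 against 0.02 for all genes, and 24 of them lay above 0. In control cells siFEM1B lowered 16 of the 27 and raised 1 (22.8% and 22.1% of all genes), whereas in knockout cells it lowered 7 and raised 8 (19.7% and 21.9%). The members with a promoter in the RefSeq table of GRCm38.p6 are shown by the sequence before their annotated start, because both BACH1 and NRF2 are known to bind antioxidant response elements. Of the 7 called members, 5 had an entry. The 250 bases before the start are printed 5′ to 3′ for 4 of them, and capitals mark the response element core (TGACNNNGC, either strand) and the AP-1 motif (TGANTCA), which can overlap. The regions are chr4:116685349-116685598 (plus strand) for Prdx1, chr3:122245307-122245556 (plus) for Gclm, chrX:74428881-74429130 (minus) for G6pdx and chr8:119436897-119437146 (plus) for an internal start of Osgin1.
Prdx1: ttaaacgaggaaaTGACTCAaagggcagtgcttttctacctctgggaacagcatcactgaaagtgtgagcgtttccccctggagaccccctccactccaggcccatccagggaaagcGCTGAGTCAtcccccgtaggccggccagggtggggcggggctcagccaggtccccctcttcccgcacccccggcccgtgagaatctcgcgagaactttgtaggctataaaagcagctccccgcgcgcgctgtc
Gclm: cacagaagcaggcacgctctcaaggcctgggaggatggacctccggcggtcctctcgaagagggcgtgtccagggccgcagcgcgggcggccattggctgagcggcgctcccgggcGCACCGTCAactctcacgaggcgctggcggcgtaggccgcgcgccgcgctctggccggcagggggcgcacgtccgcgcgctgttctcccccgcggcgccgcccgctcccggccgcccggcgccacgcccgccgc
G6pdx: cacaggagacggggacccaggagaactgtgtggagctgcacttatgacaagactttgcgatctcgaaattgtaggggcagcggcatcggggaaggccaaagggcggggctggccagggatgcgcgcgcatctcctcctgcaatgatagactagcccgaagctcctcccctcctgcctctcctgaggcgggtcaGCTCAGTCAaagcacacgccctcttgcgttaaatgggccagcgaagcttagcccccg
Osgin1: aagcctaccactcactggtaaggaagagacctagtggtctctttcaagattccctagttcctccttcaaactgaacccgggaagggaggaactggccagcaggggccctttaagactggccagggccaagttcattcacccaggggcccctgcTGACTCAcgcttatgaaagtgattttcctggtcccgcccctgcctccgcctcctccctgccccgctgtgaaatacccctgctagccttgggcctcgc
The core lies 133 bases upstream of the start in Prdx1, 134 in Gclm and 57 in G6pdx. In Prdx1 it contains an AP-1 match, and a further AP-1 match lies 237 bases upstream. The printed Osgin1 stretch has an AP-1 match 97 bases upstream and no core. Of the 5 genes with an entry, 3 held the core and 2 an AP-1 match from 250 bases before to 50 after the start. The gene that is not printed held neither. In windows of 300 bases (250 before to 50 after the start) the core was found in 11 of 28 promoters of the tested NRF2 targets, or 39.3%, against 14.4% of 12482 promoters of all tested genes and 12.4% of all 32851 in the table. Over the called genes as a whole the share was 17.1% of promoters for higher and 18.8% for lower interactions. A match is a description of these letters and not a site of binding.

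Osgin1, which encodes an oxidative stress-induced growth inhibitor (chromosome 8, 119425882 to 119446257), had the smallest p of all genes. It was at 171, 140 and 150 CPM in sgCTRL_siCTRL, and at 96.4, 92.1 and 92.1 CPM in sgCTRL_siFEM1B. In sgBACH1 cells it started lower, at 49.9, 56.1 and 49.7 CPM with siCTRL, and stood at 66.6, 66.2 and 72.0 CPM with siFEM1B. No libraries of the 4 groups overlapped. Osgin1 fell by 0.72 ± 0.07 in control cells and rose by 0.39 ± 0.07 in knockout cells, an interaction of 1.11 ± 0.10 (adjusted p = 8.18e-06). If both losses had acted independently on the log scale, the level in the double-loss group would have been 31.5 CPM, and the observed mean was 2.17 times that.

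Aldh3a1, an aldehyde dehydrogenase that clears lipid aldehydes, showed the same form. Its levels were 138, 127 and 139 CPM in sgCTRL_siCTRL, 80.7, 75.7 and 63.2 in sgCTRL_siFEM1B, 71.4, 78.3 and 65.2 in sgBACH1_siCTRL and 102, 73.1 and 104 in sgBACH1_siFEM1B. Replicate 2 of the last group lay among the sgBACH1_siCTRL libraries and the others lay above them. The interaction was 1.25 ± 0.15 (adjusted p = 7.32e-05). Gsta4, the glutathione transferase for 4-hydroxynonenal, was at 48.9 to 55.4 CPM in sgCTRL_siCTRL and 40.1 to 43.7 in sgCTRL_siFEM1B. In sgBACH1 cells it was at 33.4 to 35.3 CPM with siCTRL and 46.5 to 56.3 with siFEM1B, so the groups of each line did not overlap and moved in opposite directions (interaction 0.93 ± 0.11, adjusted p = 5.98e-05). Gstm1, another glutathione transferase, was at 107 to 113 and 77.8 to 98.7 CPM in control cells and at 70.0 to 81.7 and 88.0 to 111 CPM in knockout cells, siCTRL first (interaction 0.70 ± 0.12, adjusted p = 0.00214). These 4 calls held without each of the 12 libraries in turn.

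The other called NRF2 targets had small interactions. Gclm, the regulatory subunit of the enzyme that starts glutathione synthesis, was at 77.7 to 87.5 CPM in all 6 sgCTRL libraries, and at 108 to 116 CPM in sgBACH1_siCTRL and 133 to 154 in sgBACH1_siFEM1B (interaction 0.33 ± 0.09, adjusted p = 0.032). Prdx1, a peroxiredoxin that reduces peroxides, rose by 0.25 ± 0.05 in control and 0.56 ± 0.05 in knockout cells (interaction 0.31 ± 0.08, adjusted p = 0.0237). G6pdx, which makes NADPH in the pentose phosphate pathway, had an interaction of 0.29 ± 0.07 (adjusted p = 0.0191). It lies outside the naming rule and was added after its values were seen. Each of these 3 calls was lost without replicate 2 of sgCTRL_siFEM1B, without replicate 1 or 3 of sgBACH1_siCTRL and without replicate 3 of sgBACH1_siFEM1B, with adjusted p up to 0.0784, 0.0833 and 0.0639 for Gclm, Prdx1 and G6pdx. Gclm was also lost without replicate 2 or 3 of sgCTRL_siCTRL, replicate 1 of sgCTRL_siFEM1B or replicate 2 of sgBACH1_siCTRL. Prdx1 and G6pdx were also lost without replicate 1 of sgBACH1_siFEM1B, and without replicate 1 (Prdx1) or 3 (G6pdx) of sgCTRL_siCTRL. Gclc, the catalytic partner of Gclm, had an interaction of 0.27 ± 0.09 and was not called (adjusted p = 0.0786). The count of 7 called members of the list became 4 without replicate 2 of sgCTRL_siFEM1B, replicate 1 or 3 of sgBACH1_siCTRL or replicate 3 of sgBACH1_siFEM1B. Without replicate 2 of sgBACH1_siFEM1B it became 11 higher and 1 lower.

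Nfe2l2, the transcript of NRF2 itself, fell in both lines. It was at 115 to 116 CPM in sgCTRL_siCTRL and 51.9 to 58.2 in sgCTRL_siFEM1B, and at 105 to 114 and 54.8 to 60.5 CPM in sgBACH1 cells. Its interaction was 0.14 ± 0.08 (adjusted p = 0.336). The higher interactions of the NRF2 targets stood beside a fall of Nfe2l2 of about the same size in both lines, −1.06 ± 0.06 in control and −0.93 ± 0.06 in knockout cells. Keap1, the gene of the adaptor that targets NRF2 for degradation, was at 74.6 to 96.2 CPM in all libraries, with an interaction of 0.11 ± 0.10 (adjusted p = 0.551).

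**Figure D2:**
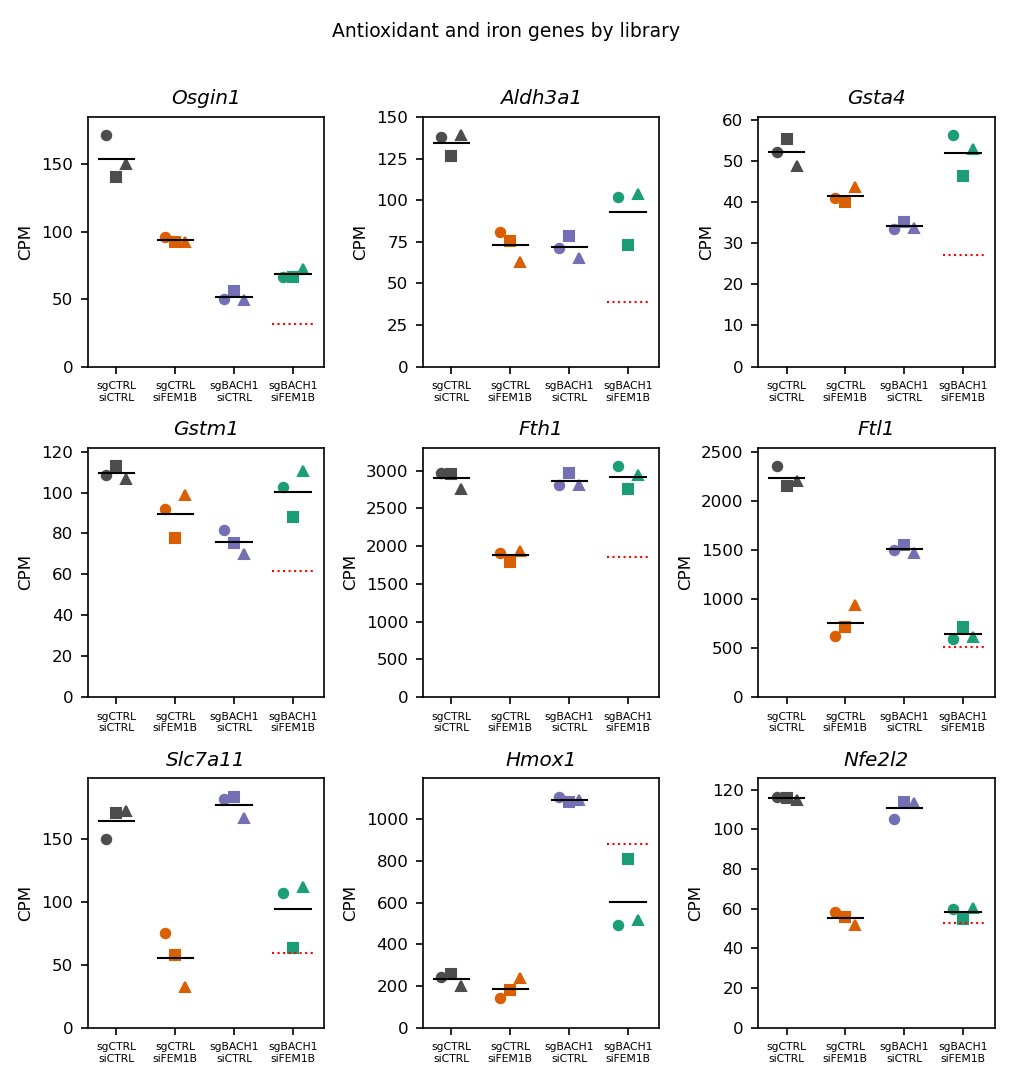
CPM of 9 antioxidant and iron genes in each library; circles, squares and triangles are replicates 1, 2 and 3, black bars are group means, and the dotted red line is the level expected in sgBACH1_siFEM1B if the log2 effects of both losses added. Osgin1, Aldh3a1, Gsta4, Gstm1 and Fth1 lie above that line in every double-loss library, Nfe2l2 lies close to it, and replicate 2 of sgBACH1_siFEM1B differs from replicates 1 and 3 for Slc7a11 and Hmox1.

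The subunits of ferritin, the iron store of the cell, are given side by side. Fth1, the ferritin heavy chain with ferroxidase activity (chromosome 19, 9980600 to 9985111), was at 2972, 2963 and 2756 CPM in sgCTRL_siCTRL and at 1912, 1789 and 1939 CPM in sgCTRL_siFEM1B. In knockout cells it was at 2805, 2974 and 2818 CPM with siCTRL and 3062, 2761 and 2938 CPM with siFEM1B. The control groups stood apart and the knockout groups overlapped: Fth1 fell by 0.62 ± 0.05 in control cells and its change in knockout cells was 0.03 ± 0.05 (adjusted p = 0.713), an interaction of 0.65 ± 0.08 (adjusted p = 5.98e-05). This call held without each of the 12 libraries. Ftl1, the light chain, was at 2162 to 2361 and 627 to 937 CPM in control cells and at 1468 to 1559 and 597 to 722 CPM in knockout cells, siCTRL first. Ftl1 fell by 1.56 ± 0.10 in control cells and by 1.23 ± 0.10 in knockout cells, and its interaction of 0.33 ± 0.14 was not called (adjusted p = 0.16). Without replicate 3 of sgCTRL_siFEM1B, the library with the highest Ftl1 of its group, it was called (adjusted p = 0.00523). Reads of Fth1 and Ftl1 can be shared with near-identical copies, as can those of Gstm1, H2-K1, Ifitm1, Ifitm3, Pgk1, Prdx1 and Prdx6.

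Slc7a11 and Hmox1, known targets of NRF2 and BACH1, were not called. Slc7a11, the cystine transporter that feeds glutathione synthesis, was at 150, 171 and 172 CPM in sgCTRL_siCTRL and at 75.3, 58.1 and 32.3 in sgCTRL_siFEM1B. It was at 182, 184 and 167 CPM in sgBACH1_siCTRL and at 107, 63.8 and 112 in sgBACH1_siFEM1B. The siFEM1B libraries of the 2 lines overlapped, and the interaction was 0.65 ± 0.27 (adjusted p = 0.156). Hmox1, heme oxygenase 1, was at 242, 258 and 203 CPM and then 142, 184 and 240 CPM in control cells. In knockout cells it was at 1107, 1080 and 1092 CPM and then 493, 808 and 517 CPM, where each siFEM1B library lay below all siCTRL libraries. Its interaction was −0.54 ± 0.22 (adjusted p = 0.15). Both were called without replicate 1 of sgCTRL_siFEM1B or without replicate 2 of sgBACH1_siFEM1B (lowest adjusted p 0.0149 for Slc7a11 and 0.00396 for Hmox1). Gpx4, the lipid peroxide reductase, was at 40.4 to 55.3 CPM with an interaction of 0.08 ± 0.12 (adjusted p = 0.748).

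Of 29 tested ferroptosis defence genes 4 had a higher interaction (Fth1, Gclm, Coq2 and Prdx6) and 1 a lower one (Scd2), against 3.45% higher and 2.6% lower over all genes, so the lower share is about that of all genes. Their median was 0.14. Coq2, an enzyme of coenzyme Q synthesis, was at 35.2 to 41.8 CPM and 24.5 to 28.5 in control cells but 40.1 to 46.3 and 38.7 to 49.8 in knockout cells, siCTRL first. Its fall of 0.56 ± 0.10 in control cells had no counterpart in knockout cells (0.09 ± 0.09, adjusted p = 0.463), giving an interaction of 0.65 ± 0.13 (adjusted p = 0.00817). Prdx3, the mitochondrial peroxiredoxin, likewise fell by 0.49 ± 0.06 in control cells against −0.12 ± 0.06 in knockout cells (interaction 0.37 ± 0.08, adjusted p = 0.0128). Both held without each library in turn. The 4 higher calls of the defence list became 9 without replicate 2 of sgBACH1_siFEM1B. They became 2 without replicate 2 of sgCTRL_siFEM1B, replicate 1 or 3 of sgBACH1_siCTRL or replicate 3 of sgBACH1_siFEM1B. Of 24 genes that promote ferroptosis 1 was called (4.17% against 6.05% of all genes). It was Lpcat3, which loads polyunsaturated fatty acids into phospholipids, at 0.28 ± 0.08 (adjusted p = 0.0339). That call was lost without replicate 3 of sgCTRL_siCTRL, replicate 2 or 3 of sgCTRL_siFEM1B or replicate 1 or 3 of either sgBACH1 group, with adjusted p up to 0.116. Of 26 iron handling genes Fth1 alone was called, or 3.85% against 6.05% of all genes. Of 21 genes of heme synthesis and use none was called with edgeR, DESeq2 or limma voom (5 at an unadjusted p under 0.05). Of these, 2 were higher and 1 lower without replicate 2 of sgBACH1_siFEM1B, and 1 was called in each direction without replicate 1 of sgCTRL_siFEM1B. In the BACH1-repressed list 3 of 20 were called, all higher (Fth1, Gclm and Osgin1), against 3.45% of all genes, with a median of 0.19. Without replicate 2 of sgBACH1_siFEM1B 5 were higher and 1 lower. Without replicate 1 of sgCTRL_siFEM1B 4 were higher and 1 lower, and without its replicate 3 4 were higher. The count became 2 without replicate 2 or 3 of sgCTRL_siCTRL, replicate 2 of sgCTRL_siFEM1B, any single sgBACH1_siCTRL library or replicate 3 of sgBACH1_siFEM1B. The 19 tested genes of CUL2 ligases, the 31 of the proteasome and the 27 of lysosomes and the FLCN pathway had no called interaction with edgeR or limma voom, at medians of 0.02, −0.05 and −0.02. At an unadjusted p under 0.05 there were 2, 4 and 3, and DESeq2 called 0, 1 and 1, both lower. Without replicate 3 of sgCTRL_siFEM1B 1 CUL2 gene was lower, and 1 proteasome gene was called in each direction. Without replicate 2 of sgBACH1_siFEM1B 1 CUL2 gene and 1 lysosome gene were lower. Without replicate 2 of sgBACH1_siCTRL 1 proteasome gene was higher. These lists share members.

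Hypoxia targets showed the opposite sign. They are genes that the oxygen-regulated factor HIF turns on, and HIF is itself marked for degradation by a CUL2 ligase with the receptor VHL. All 18 were tested and all 18 interactions lay below 0, with a median of −0.39, and 7 were called, all lower, against 2.6% of all genes: Ero1l, Ndrg1, Vegfa, Ankrd37, P4ha2, Mxi1 and Higd1a. In control cells siFEM1B raised 14 of the 18 and lowered 2 (22.1% and 22.8% of all genes). In knockout cells it raised 2 and lowered 4 (21.9% and 19.7%), so the lowered share there is near that of all genes. Ero1l, the ER oxidase that drives disulfide formation (chromosome 14, 45283087 to 45318572), was at 888, 1066 and 832 CPM in sgCTRL_siCTRL and 1156, 1512 and 1689 in sgCTRL_siFEM1B. It was at 1106, 959 and 1112 CPM in sgBACH1_siCTRL and at 536, 1045 and 542 in sgBACH1_siFEM1B. It rose by 0.65 ± 0.18 in control cells and fell by 0.58 ± 0.18 in knockout cells, although replicate 2 of sgBACH1_siFEM1B lay inside the range of the siCTRL libraries (interaction −1.23 ± 0.25, adjusted p = 0.00817). Ndrg1, a stress-responsive differentiation gene, was at 376 to 396 and 542 to 662 CPM in control cells, and at 301 to 313 CPM and 229, 347 and 244 CPM in knockout cells (interaction −0.83 ± 0.15, adjusted p = 0.00263). Vegfa, the angiogenic growth factor, rose by 0.47 ± 0.08 in control cells against −0.03 ± 0.08 in knockout cells (interaction −0.49 ± 0.12, adjusted p = 0.0186). The Ero1l and Ndrg1 calls held without each library. That of Vegfa was lost without replicate 2 of sgCTRL_siFEM1B or replicate 1 or 3 of either sgBACH1 group, with adjusted p up to 0.0699.

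The count of 7 called hypoxia targets depended on single libraries. It became 13 without replicate 2 of sgBACH1_siFEM1B. It became 3 without replicate 3 of sgCTRL_siCTRL, and 2 without replicate 2 of sgCTRL_siFEM1B or without replicate 1 or 3 of either sgBACH1 group. With robust estimation of the prior in edgeR, an alternative chosen after seeing the data, it was 3. Of 18 glycolysis genes 3 were lower (Pgk1, Aldoc and Hk1; 2.6% of all genes) and none higher, with a median of −0.20. That count became 7 without replicate 2 and 1 without replicate 1 or 3 of sgBACH1_siFEM1B. It became 6 without replicate 1 and 1 without replicate 2 of sgCTRL_siFEM1B, and 1 without any single sgBACH1_siCTRL library or replicate 2 or 3 of sgCTRL_siCTRL. Pgk1, phosphoglycerate kinase, was at 133 to 181 and 164 to 185 CPM in control cells and 148 to 172 and 113 to 125 CPM in knockout cells, so only the knockout groups stood apart (interaction −0.62 ± 0.13, adjusted p = 0.0102).

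ER chaperones fold and quality-check secreted proteins. All 18 were tested, 16 lay below 0 with a median of −0.31, and 8 were called lower, against 2.6% of all genes: Hspa5, Hsp90b1, Calr, Dnajb11, Creld2, Manf, Hyou1 and Edem1. SiFEM1B raised 11 and lowered 1 in control cells (22.1% and 22.8% of all genes) and raised 1 and lowered 6 in knockout cells (21.9% and 19.7%). Hspa5, the chaperone BiP (chromosome 2, 34772090 to 34776529), was at 904, 955 and 862 CPM in sgCTRL_siCTRL and 1068, 1183 and 1542 in sgCTRL_siFEM1B, and at 1394, 1327 and 1425 CPM in sgBACH1_siCTRL and 932, 1399 and 918 in sgBACH1_siFEM1B. It rose by 0.48 ± 0.13 in control cells and fell by 0.35 ± 0.13 in knockout cells, where replicate 2 did not follow the fall (interaction −0.83 ± 0.18, adjusted p = 0.0106). Hsp90b1, the ER form of HSP90, had an interaction of −0.63 ± 0.13 (adjusted p = 0.0105). Manf, a small ER stress protein, was at 76.6 to 86.1 and 117 to 157 CPM in control cells and 144 to 151 and 151 to 169 CPM in knockout cells (interaction −0.61 ± 0.11, adjusted p = 0.00431). Hyou1, another ER chaperone, had an interaction of −0.41 ± 0.08 (adjusted p = 0.00566). These 4 calls held without each library in turn. The count of 8 became 13 without replicate 2 of sgBACH1_siFEM1B and 6 without replicate 1 or 3 of that group. There, not all of Calr, Dnajb11, Creld2 and Edem1 kept their calls. It was 7 without replicate 2 of sgCTRL_siCTRL, without replicate 3 of sgBACH1_siCTRL and with robust estimation in edgeR. Without replicate 1 of sgCTRL_siFEM1B it was 9.

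**Figure D3:**
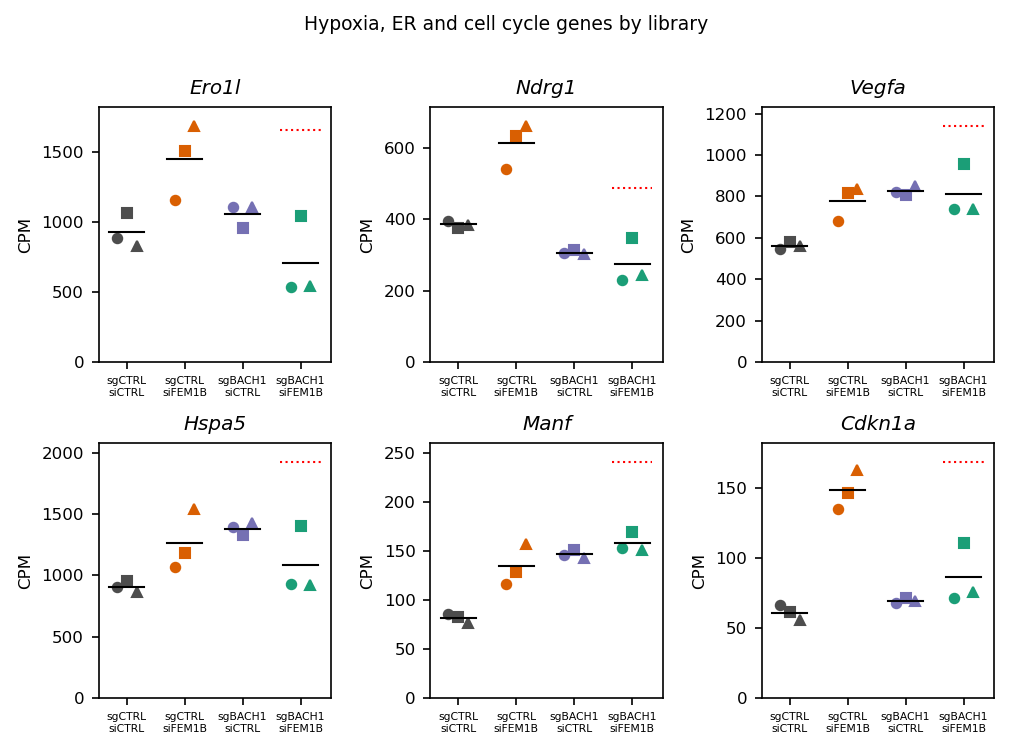
CPM of 6 genes with lower interactions in each library, drawn as in the plot of antioxidant genes: circles, squares and triangles are replicates 1, 2 and 3, black bars group means and the dotted red line the level expected if log2 effects added. All double-loss libraries lie below the dotted line, and replicate 2 of sgBACH1_siFEM1B lies above the other 2 in each panel.

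Libraries varied within groups, and in the siFEM1B groups this touches the hypoxia, ER and amino acid stress genes. On the third principal component, with 4.61% of the variance, replicate 2 of sgBACH1_siFEM1B had a score of −2.91 against 10.6 and 11 for replicates 1 and 3. Replicate 2 of sgBACH1_siCTRL also stood apart there, at −1.97 against −7.72 and −7.95, so such a difference was seen under control siRNA too. What sets these libraries apart was not tested. The median level of the 18 hypoxia targets, as log2 over their mean in sgCTRL_siCTRL, was 0.32, 0.47 and 0.55 in replicates 1 to 3 of sgCTRL_siFEM1B and 0.13, 0.47 and 0.10 in sgBACH1_siFEM1B. For the 18 ER chaperones it was 0.19, 0.18 and 0.34 and then −0.04, 0.20 and −0.01. Asns, the asparagine synthetase that the stress factor ATF4 turns on, was at 397, 317 and 304 CPM in sgCTRL_siFEM1B and 418, 285 and 439 in sgBACH1_siFEM1B. Chac1, a glutathione-degrading ATF4 target, was at 96.9, 59.4 and 47.2 CPM and at 77.4, 45.8 and 77.6 CPM. Asns and Chac1 were chosen after their values were seen. The residual Fem1b given above was lowest in replicate 1 of sgCTRL_siFEM1B and in replicates 1 and 3 of sgBACH1_siFEM1B, the same libraries in which Asns and Chac1 were highest. The part of residual Fem1b in the interactions was not tested.

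**Figure D4:**
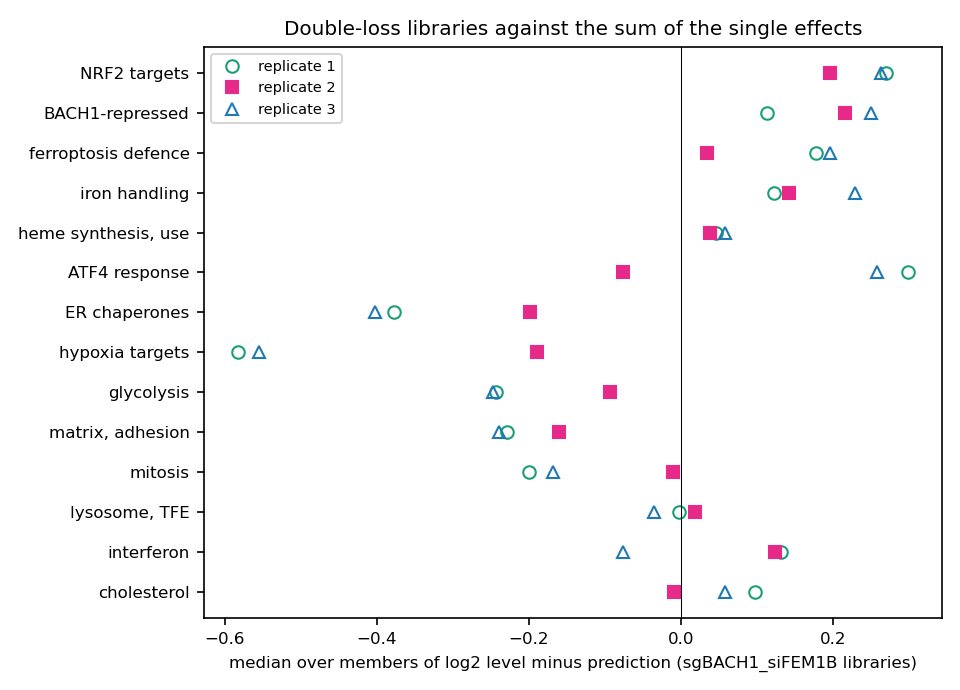
For each gene list, the median over its members of the log2 level in a sgBACH1_siFEM1B library minus the level expected if log2 effects added; circles, squares and triangles are replicates 1, 2 and 3. Hypoxia targets lie at −0.58, −0.19 and −0.56 and NRF2 targets at 0.27, 0.20 and 0.26 in replicates 1 to 3, so replicate 2 lies nearer to 0, while the ATF4 list changes sign in that replicate.

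Each library of the double-loss group can be set against the expected level. The median departure of hypoxia targets was −0.58, −0.19 and −0.56 in replicates 1 to 3, that of ER chaperones −0.38, −0.20 and −0.40, and that of NRF2 targets 0.27, 0.20 and 0.26. The ATF4 list had departures of 0.30, −0.08 and 0.26. Against 3.45% higher and 2.6% lower of all genes, its 27 members held 3 calls in each direction. These became 7 higher and 5 lower without replicate 2 of sgBACH1_siFEM1B, 5 and 4 without replicate 1 of sgCTRL_siFEM1B, and 1 and 0 without replicate 3 of sgBACH1_siCTRL. Without any 1 of the other libraries 1 to 4 were higher and 1 to 3 lower. Phgdh, the first enzyme of serine synthesis, was at 276 to 298 and 156 to 172 CPM in control cells and at 233 to 259 and 165 to 216 CPM in knockout cells, a smaller fall (interaction 0.53 ± 0.11, adjusted p = 0.0092). Aldh1l2, a mitochondrial folate enzyme, went the other way, with falls of 0.32 ± 0.07 and 0.74 ± 0.07 (interaction −0.42 ± 0.10, adjusted p = 0.016), a call lost without replicate 3 of sgBACH1_siCTRL (adjusted p = 0.0506).

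Of 29 tested genes of the basement membrane and cell adhesion 6 were lower and none higher, against 2.6% and 3.45% of all genes (among them Lamb1, Lamb3, Itga2, Itgb1 and Plod2), with a median of −0.20. SiFEM1B raised 13 and lowered 3 in control cells (22.1% and 22.8% of all genes), and raised 4 and lowered 5 in knockout cells (21.9% and 19.7%). Both shares in knockout cells are below those of all genes. Lamb3, a laminin chain of the basement membrane, was at 6.4 to 8.13 and 10.7 to 13.8 CPM in control cells and at 23.8 to 26.6 and 22.1 to 25.5 CPM in knockout cells, so the control groups stood apart and the knockout groups overlapped. It rose by 0.74 ± 0.12 in control cells against −0.05 ± 0.10 in knockout cells (interaction −0.79 ± 0.16, adjusted p = 0.00707). Itga2, a collagen-binding integrin, had an interaction of −0.99 ± 0.18 (adjusted p = 0.00303) and Plod2, a collagen lysyl hydroxylase, one of −0.57 ± 0.11 (adjusted p = 0.00675). In contrast to these, Spp1, the secreted matrix protein osteopontin, was at 4219 to 4776 CPM in sgCTRL_siCTRL, 2398 to 2461 in sgCTRL_siFEM1B, 2899 to 3194 in sgBACH1_siCTRL and 2466 to 3013 in sgBACH1_siFEM1B (interaction 0.74 ± 0.09, adjusted p = 0.000113). The calls of Lamb3, Itga2, Plod2 and Spp1 held without each library.

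**Figure D5:**
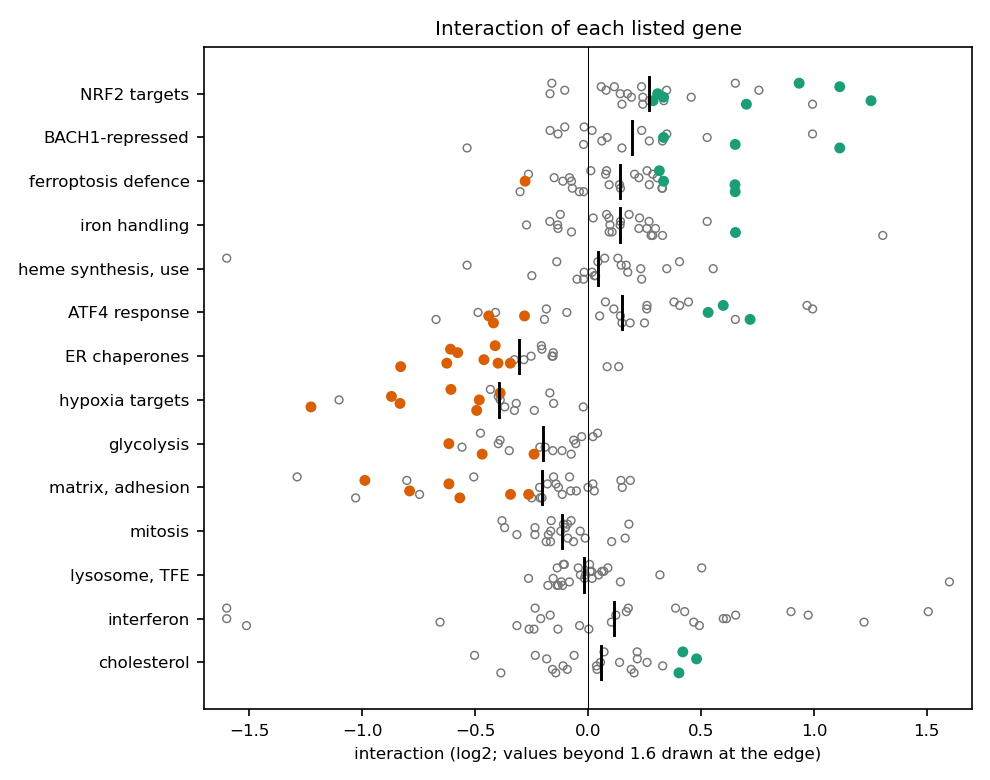
Interaction (log2) of every tested member of 14 gene lists, 1 point per gene; filled points passed the test (green higher, orange lower), open points did not, and black bars are list medians; 4 members beyond 1.6 are drawn at the edge. Called hypoxia, ER chaperone and glycolysis genes all lie left of 0 and called NRF2 targets all lie right of it.

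The cell cycle inhibitor Cdkn1a, which encodes p21, was among the largest lower interactions. It was at 66.1, 61.2 and 55.7 CPM in sgCTRL_siCTRL and 135, 147 and 163 in sgCTRL_siFEM1B, but at 67.6, 71.5 and 68.9 CPM in sgBACH1_siCTRL and 71.6, 111 and 75.7 in sgBACH1_siFEM1B. It rose by 1.28 ± 0.11 in control cells and by 0.31 ± 0.12 in knockout cells (interaction −0.97 ± 0.16, adjusted p = 0.00183). Of 18 tested p53 targets 2 were lower (Cdkn1a and Mdm2) and 1 higher (Gdf15), against 2.6% and 3.45% of all genes, in cells labelled Trp53flox/flox. The calls of Gdf15 and Mdm2 were lost without replicate 1 of sgBACH1_siCTRL or replicate 1 or 3 of sgBACH1_siFEM1B. The higher call was also lost without replicate 1 or 3 of sgCTRL_siCTRL, 2 or 3 of sgCTRL_siFEM1B or 3 of sgBACH1_siCTRL. With edgeR none of 22 mitosis genes was called, at a median of −0.11, and 6 had an unadjusted p under 0.05. With DESeq2, with median-of-ratios scaling in edgeR and with genes at an average log2 CPM of 3 or more, 3 were lower, and 4 were lower without replicate 2 of sgBACH1_siFEM1B. None of 24 replication genes was called either, at a median of −0.04 with 5 at an unadjusted p under 0.05, and 1 was lower under each of these 4 settings. With limma voom neither list had a call. Of 23 early response genes 2 were higher and 2 lower, against 3.45% and 2.6% of all genes. The lower count became 7 without replicate 2 of sgBACH1_siFEM1B and 4 without replicate 1 of sgCTRL_siFEM1B. It became 1 without any of the others apart from replicate 3 of sgCTRL_siFEM1B and replicate 1 of sgBACH1_siCTRL. The called genes were Egr1, a growth factor-induced transcription factor, at 0.75 ± 0.13 (adjusted p = 0.00248), Myc, Atf3, and Dusp4, a phosphatase of MAP kinases, at −0.89 ± 0.16 (adjusted p = 0.00303). Egr1 was at 94.6 to 114 and 77.4 to 96.0 CPM in control cells and 61.0 to 76.5 and 82.2 to 93.7 CPM in knockout cells, so that the lines overlapped with siFEM1B and stood apart with siCTRL.

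Interferon-stimulated genes had no called interaction in 28 tested with edgeR or limma voom and 1 higher with DESeq2. Their median was 0.11, their spread from −2.97 to 1.51, and 5 had an unadjusted p under 0.05. Without replicate 2 of sgBACH1_siFEM1B 1 of these genes was higher and 1 lower. SiFEM1B raised 21 of them in control and 17 in knockout cells (22.1% and 21.9% of all genes). In the class I antigen presentation list 1 of 9 was called, against 6.05% of all genes: H2-K1, at −0.76 ± 0.14 (adjusted p = 0.00348). It was at 35.5 to 36.3 and 74.3 to 89.7 CPM in control cells and at 52.6 to 55.9 and 60.1 to 86.0 CPM in knockout cells. Of 24 NF-kB and cytokine genes 1 was lower and 2 higher, against 2.6% and 3.45% of all genes. Nfkbia, which encodes the inhibitor of NF-kB, was lower at −0.52 ± 0.10 (adjusted p = 0.00597), and Icam1 and Csf1 were higher. Of 23 cholesterol synthesis genes Fdft1, Nsdhl and Mvd were higher, at 0.40 to 0.48, and none was lower, against 3.45% and 2.6% of all genes. Without replicate 3 of sgCTRL_siFEM1B 2 were higher and 4 lower, and the median turned from 0.06 to −0.03. Without replicate 2 of sgBACH1_siFEM1B 5 were higher. Each of these 3 calls was lost without replicate 3 of sgBACH1_siCTRL and without replicate 1 or 3 of sgBACH1_siFEM1B, with adjusted p up to 0.128. Fdft1 was also lost without replicate 2 of sgCTRL_siFEM1B or replicate 1 of sgBACH1_siCTRL, Nsdhl without replicate 3 of sgCTRL_siCTRL, and Mvd without replicate 1 or 2 of sgCTRL_siCTRL, 2 or 3 of sgCTRL_siFEM1B or 1 or 2 of sgBACH1_siCTRL. Of 47 nuclear respiratory chain genes Ndufv2 was higher and Sdhd lower, or 4.26% against 6.05% of all genes. Both calls were lost without replicate 2 or 3 of sgCTRL_siCTRL, replicate 2 of sgCTRL_siFEM1B or replicate 1 or 3 of either sgBACH1 group, and 5 were higher without replicate 3 of sgCTRL_siFEM1B. No member was called with edgeR or limma voom among 18 mesenchymal and 5 hedgehog genes, of which 7 and 0 had an unadjusted p under 0.05, and DESeq2 called 1 mesenchymal gene in each direction. Other edgeR settings did call mesenchymal genes. With median-of-ratios scaling 1 was lower, and without a filter on low counts 2 were higher and 2 lower. Without replicate 2 of sgBACH1_siFEM1B 2 were higher and 3 lower, and without replicate 1 of sgCTRL_siFEM1B 1 was called in each direction.

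Among the largest higher interactions, several belong to genes with low levels in knockout cells. Apoc2, an apolipoprotein that activates lipoprotein lipase, was at 1.7 to 1.84 CPM in sgCTRL_siCTRL and 11.9, 11.9 and 12.7 CPM in sgCTRL_siFEM1B. It was at 0.368, 0.399 and 0.416 CPM in sgBACH1_siCTRL (7, 8 and 9 counts) and at 18.5, 17 and 18.5 CPM in sgBACH1_siFEM1B, the highest of all groups. The rises were 2.77 ± 0.13 and 5.48 ± 0.17 (interaction 2.71 ± 0.26, adjusted p = 1.06e-05). Aqp8, a water and peroxide channel, was at 19.4 to 23.5 and 14.6 to 19.4 CPM in control cells, but at 1, 5 and 8 counts in sgBACH1_siCTRL and 31, 27 and 21 counts in sgBACH1_siFEM1B. Its interaction was 2.94 ± 0.40 (adjusted p = 0.000294), on levels of at most 1.5 CPM in knockout cells. Cldn2, a tight junction pore protein, was at 23.8 to 28.6 CPM in sgCTRL_siCTRL and 21.3, 15.4 and 10.1 in sgCTRL_siFEM1B, and at 3.74 to 4.58 CPM and 17.6, 9.28 and 15.4 CPM in knockout cells (interaction 2.55 ± 0.31, adjusted p = 0.000101). Cd38, which hydrolyses NAD, was at 13.5 to 14.5 and 12.4 to 16.5 CPM in control cells, and went from 9.61 to 11.2 CPM up to 26.3 to 31.4 CPM in knockout cells (interaction 1.35 ± 0.16, adjusted p = 7.32e-05). Glod5, Hsd17b14, Acaa1b and Tgm2 had interactions of 1.41 ± 0.17, 1.55 ± 0.18, 1.46 ± 0.24 and 1.28 ± 0.21. Ifitm1 and Ifitm3, membrane proteins that restrict viral entry, had 1.58 ± 0.22 and 1.45 ± 0.24.

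For some of these genes the sign depends on the scale. Ifitm3 was at 15.1 to 18.7 and 23.5 to 30.6 CPM in control cells, and at 0.832 to 1.35 and 4.53 to 5.07 CPM in knockout cells. Its fold rise was larger in knockout cells and its rise in CPM larger in control cells. With differences of CPM in place of log2 changes, Tspan1, Adap1 and Ifitm3 turned lower and Tnfrsf11b turned higher. Osgin1, Aldh3a1, Gsta4, Cldn2, Hsd17b14 and Krt7 fell in control and rose in knockout cells, a form that does not depend on the scale. Krt7, a simple epithelial keratin, was at 1687 to 1783 and 1382 to 1490 CPM in control cells and 424 to 479 and 563 to 599 CPM in knockout cells (interaction 0.66 ± 0.08, adjusted p = 5.98e-05). Of 13 tested epithelial genes Krt7 was higher and Cdh1, E-cadherin, lower, at −0.38 ± 0.08 (adjusted p = 0.0119), against 3.45% and 2.6% of all genes.

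Other large lower interactions were found in single genes. Jag2, a Notch ligand, was at 2.0 to 3.11 and 5.17 to 5.42 CPM in control cells and at 83.9 to 88.7 and 72.4 to 83.2 CPM in knockout cells (interaction −1.14 ± 0.16, adjusted p = 0.000435). Sdc3, a heparan sulfate proteoglycan, rose by 0.70 ± 0.12 in control cells, from 15.6 to 16.2 CPM up to 22.9 to 28.6, and fell by 0.43 ± 0.09 in knockout cells, from 159 to 174 CPM down to 107 to 152 (interaction −1.13 ± 0.15, adjusted p = 0.000233). Havcr2, the immune checkpoint receptor TIM-3, rose by 1.09 ± 0.08 in control cells, and its change in knockout cells was 0.11 ± 0.07 (interaction −0.98 ± 0.11, adjusted p = 4.73e-05). Cd109, a GPI-anchored TGF-beta co-receptor, and Tnfrsf9, the receptor 4-1BB, had interactions of −1.12 ± 0.21 and −1.03 ± 0.20. Plau, the urokinase protease, rose by 1.30 ± 0.10 and 0.44 ± 0.11 (interaction −0.86 ± 0.15, adjusted p = 0.00277). Jag2, Sdc3, Havcr2, Cd109, Tnfrsf9 and Plau were called without each library in turn. Pgf, a VEGF family growth factor, Selenbp1, a selenium-binding protein, and Atp7b, a copper pump, had −1.33 ± 0.34, −1.09 ± 0.29 and −1.08 ± 0.28, and lost their calls without replicate 2 or 3 of sgCTRL_siCTRL, replicate 2 of sgCTRL_siFEM1B or replicate 1 or 3 of either sgBACH1 group (highest adjusted p 0.0926, 0.0951 and 0.0903). Selenbp1 also lost it without replicate 1 of sgCTRL_siCTRL.

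Other genes show the remaining forms. Cyp1b1, a xenobiotic monooxygenase, and Rdh10, a retinol dehydrogenase, fell in both lines and less so in knockout cells. Cyp1b1 was at 102 to 120 and 28.1 to 32.2 CPM in control cells and 52.0 to 53.4 and 20.2 to 22.3 CPM in knockout cells (interaction 0.63 ± 0.11, adjusted p = 0.00214). Il5ra, a cytokine receptor chain, Htra1, a secreted protease, and Usp39, a splicing factor, fell in both lines and more so in knockout cells, with interactions of −0.70 ± 0.11, −0.45 ± 0.10 and −0.49 ± 0.08. Usp12, a deubiquitinase, and Slc20a1, a phosphate transporter, fell in knockout cells alone. Usp12 was at 88.1 to 100 CPM in the 6 control libraries, at 83.0 to 106 in sgBACH1_siCTRL and at 55.6 to 65.7 in sgBACH1_siFEM1B (interaction −0.72 ± 0.11, adjusted p = 0.0013). Clu, the extracellular chaperone clusterin, and Cldn6, a claudin, fell in control cells alone, with interactions of 0.54 ± 0.07 each. Camk2b, a calcium-dependent kinase, was at 27.1 to 30.4 CPM in control cells under both siRNAs and rose from 2.82 to 3.49 CPM up to 7.39 to 7.66 CPM in knockout cells (interaction 1.18 ± 0.15, adjusted p = 0.000101).

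Called interactions were spread over the genome. The median interaction per chromosome lay between −0.01 and 0.05 over 20 chromosomes, and between 4.5% and 8.47% of the genes tested on each were called. Of the genes named above, those that overlap another tested gene in the annotation, so that reads could be assigned to either, were G6pdx with Ikbkg, Hspa5 with Rabepk, Ankrd37 with Ufsp2, Lpcat3 with Emg1, Fdft1 with Ctsb, Plod2 with B430319G15Rik, Hk1 with Hk1os, Scd2 with Mir5114 and Jag2 with Mir6941. The authors' strand setting in counting is not given in the sources used here. Of the called genes named above without values, Ankrd37, Aldoc, Hk1, Prdx6, Scd2, Mdm2, Myc, Csf1 and Icam1 lost their calls without replicate 1 of sgBACH1_siCTRL and also without 2 to 9 other single libraries each, and so did Tspan1 and Tnfrsf11b. P4ha2, Mxi1, Higd1a, Gdf15, Ndufv2 and Sdhd also lost theirs without that library, by the counts of their lists.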

How the data were processed

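RNA of 12 libraries was prepared with a TruSeq stranded mRNA kit, per the labels' protocols. Unscaled raw counts per gene symbol were deposited for all of them in 1 table. Per the submitters' processing notes the authors used Subread, SAMtools 1.9, featureCounts 1.6.4 and DESeq2 1.26.0 with mm10. Neither annotation nor strand setting is given in the sources used here.

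Here 1 edgeR 4.0.16 quasi-likelihood model of the 4 group means (TMM scaling, 8 residual degrees of freedom, R 4.3.3) was fitted to the 13312 genes with 10 or more counts in at least 3 libraries. The interaction and both siRNA effects were contrasts of it, with Benjamini-Hochberg adjustment over all tested genes, a threshold of 0.05 and two-sided tests. Standard errors are the log2 change divided by the square root of F. No 2 libraries held identical counts. Genes were named by size of the interaction and by smallest p within each combination of component effects, at an average log2 CPM of 3 or more, plus listed genes. The members and the gene lists were chosen with earlier results of these data known. Positions and promoters are RefSeq's for GRCm38.p6, with 588 of the 805 called genes having a promoter entry. On simulated counts for the interaction over 13312 genes, 16% of 50 genes changed 1.25-fold were called, 68% at 1.5-fold, 88% at 2-fold and 98% at 4-fold. Tested genes with the lowest average levels were never picked to carry a change, so these shares do not cover them. Genes were drawn independently there, so shifts that many genes share within a library were not simulated. Alternatives used limma 3.58.1 (voom), DESeq2 1.42.0, other scalings and filters, a replicate block, differences of CPM and each library left out.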

Additional observations from a re-analysis of the deposited data

Results flagged for a closer look

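The siRNA effect differed between control and knockout cells in 805 genes by the interaction test (edgeR, adjusted over 13312 genes). For 17 of the named genes the effects in the lines were also called in opposite directions, which is why they are given again. Those that fell in control cells and rose in knockout cells were Aqp8 (interaction 2.94), Cldn2 (2.55), Hsd17b14 (1.55), Aldh3a1 (1.25), Osgin1 (1.11), Gsta4 (0.93), Egr1 (0.75), Gstm1 (0.70) and Krt7 (0.66). Those that rose in control cells and fell in knockout cells were Ero1l (−1.23), Sdc3 (−1.13), Cd109 (−1.12), Dusp4 (−0.89), Hspa5 (−0.83), Slc9a2 (−0.83), Ngef (−0.74) and Hsp90b1 (−0.63). For at least Aldh3a1, Ero1l and Hspa5, replicate 2 of sgBACH1_siFEM1B lay within the range of the sgBACH1_siCTRL libraries. Their direction in knockout cells therefore rests on replicates 1 and 3. Slc9a2, a sodium-proton exchanger, rose by 0.26 and fell by 0.57, and Ngef, a guanine nucleotide exchange factor, rose by 0.43 and fell by 0.31.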

How the results depend on the processing

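The count of 805 called genes (459 higher, 346 lower, 90 of at least 1 on the log2 scale) became 1393 (736 and 657) without a filter on low counts and 1281 (718 and 563) when differences of CPM replaced log2 changes. With genes limited to an average log2 CPM of 3 or more, 530 were lower and 31 reached a size of 1, and with the DESeq2 Wald test 617 were lower. Of the calls 39.2% were higher under that filter and 42.4% without replicate 3 of sgCTRL_siFEM1B. Leaving out 1 library gave 299 to 1868 calls, 172 to 958 higher, 123 to 910 lower and 46 to 190 of size 1. The count was 1868 without replicate 2 of sgBACH1_siFEM1B. It was 299 and 301 without replicates 1 and 3 of that group, 308 and 300 without replicates 1 and 3 of sgBACH1_siCTRL, 395 without replicate 2 of sgCTRL_siFEM1B and 381 without replicate 3 of sgCTRL_siCTRL. With differences of CPM the sign turned for Tspan1 (−1.81), Adap1 (−0.94), Ifitm3 (−0.53), Tnfrsf11b (0.45) and Neurl3 (−0.021), in units of the mean CPM of the gene. Bach1 ranged from −0.051 to 0.085 and was at −0.014, −0.051 and −0.0061 without replicate 2 of sgCTRL_siCTRL, replicate 3 of sgCTRL_siFEM1B or replicate 2 of sgBACH1_siCTRL. The cause was not tested. Under both other scalings the NRF2 targets kept counts of 7 higher and 0 lower, and the ER chaperones 0 and 8.

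With the replicate number as a block 598 genes were called, 592 of them shared with the 805. Deviations from group means correlated at −0.319 to 0.224 in 18 same-numbered pairs and at −0.354 to 0.337 in 36 others, with medians of −0.113 and 0.0222. As a set, same-numbered libraries were thus not more alike than others. Deviations within a group sum to 0, so this comparison cannot exclude a pairing of some libraries. Totals of 16539168 to 22196999 counts and 3 libraries a group limit which small interactions can be detected, and 3117 genes had an unadjusted p under 0.05.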
